A study of Mus musculus with 5 samples.

Results

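The immunoglobulin kappa variable (Igkv) genes of the tumor-draining lymph nodes (TDLN) were followed in 3 single-cell 5′ gene expression reactions. Members were all genes whose symbol starts with Igkv, which gave 160 of the 32285 genes counted in each TDLN reaction. The lymph nodes drained TRAMP-C2 tumors, a mouse prostate cancer line grown under the skin of male wild-type C57BL/6J mice aged 8 to 10 weeks after injection of tumor cells. The mice received isotype control antibody or combined anti-CTLA4 and anti-PD-1 (CPI) on days 3, 6 and 9, and vehicle or 20 mg/kg of the JAK1 inhibitor ABT-317 on day 12, with harvest on day 15. Isotype, CPI and CPI+JAKi cells were hashed with antibody tags and pooled, and about 60000 unsorted lymph node cells were loaded per reaction. All antibody features held 0 UMIs in the 3 matrices, so treatments cannot be told apart here. By the study's methods every reaction received the tagged samples in equal parts. The study also describes repeated experiments for these nodes, and the labels do not say which reaction came from which. Whether the reactions hold cells of the same mice is thus not known, and the spread between them may be technical or between mice.

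An antibody light chain gene is made in the bone marrow, where 1 Igkv segment is joined to 1 Igkj segment in front of the constant gene Igkc. Most mouse B cells carry kappa rather than lambda light chains, and a B cell usually keeps 1 productive light chain and 1 heavy chain, a restriction known as allelic exclusion. Plasma cells, the secreting descendants of B cells, hold far more immunoglobulin RNA than resting B cells. The 5′ reads of this assay begin at the start of the transcript, so they fall on the V segment more than on the constant gene.

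The genes lie on chromosome 6 of GRCm38, between bases 67555497 and 70704177, ahead of Igkj1 (chr6:70722562-70722599, plus strand) and Igkc (chr6:70726435-70726966). All 160 identifiers matched the GENCODE M21 annotation, which calls 100 of them functional V genes and 60 pseudogenes. Of the members, 75 lie on the plus strand like Igkj1 and 85 on the minus strand. The nearest to Igkj1 was Igkv3-1 at 18.4 kb and the farthest Igkv2-137 at 3166 kb. A motif with the codon of a conserved cysteine was found in the transcripts of 131 members, 97 of them functional. In the genes shown, the transcript ends after that codon with the bases that start the third complementarity-determining region. Those ends are shown for 7 of the 10 most used genes and for further genes on which a comparison below turns, from GENCODE M21 transcripts, 5′ to 3′, with the codon of the conserved cysteine in capitals and 30 bases before it.
Igkv3-4 (chr6:70671788-70672377, plus): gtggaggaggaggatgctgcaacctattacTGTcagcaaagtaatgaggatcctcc
Igkv3-10 (chr6:70572633-70573230, plus): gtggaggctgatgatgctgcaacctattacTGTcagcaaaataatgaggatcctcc
Igkv3-2 (chr6:70698449-70699067, plus): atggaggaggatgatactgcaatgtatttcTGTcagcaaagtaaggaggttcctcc
Igkv1-99 (chr6:68541644-68542422, plus): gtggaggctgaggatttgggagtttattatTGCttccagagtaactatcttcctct
Igkv1-122 (chr6:68016718-68017488, plus): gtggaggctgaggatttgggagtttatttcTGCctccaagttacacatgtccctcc
Igkv1-117 (chr6:68121046-68121827, plus): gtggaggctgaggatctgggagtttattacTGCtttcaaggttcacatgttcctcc
Igkv1-135 (chr6:67609713-67610508, plus): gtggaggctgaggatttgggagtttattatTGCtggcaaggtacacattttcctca
Igkv10-96 (chr6:68631963-68632442, minus): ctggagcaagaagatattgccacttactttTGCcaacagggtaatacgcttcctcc
Igkv12-46 (chr6:69764523-69765022, minus): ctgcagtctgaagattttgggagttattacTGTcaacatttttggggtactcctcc
Igkv14-126 (chr6:67896172-67896642, plus): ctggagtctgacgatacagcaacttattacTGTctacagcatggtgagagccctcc
Igkv8-18 (chr6:70355852-70356445, plus): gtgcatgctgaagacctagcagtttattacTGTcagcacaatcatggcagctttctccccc
Igkv4-70 (chr6:69267888-69268443, minus): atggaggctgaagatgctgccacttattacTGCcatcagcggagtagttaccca
Igkv4-68 (chr6:69304834-69305405, minus): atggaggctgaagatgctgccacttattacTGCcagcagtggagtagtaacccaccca

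Over 174 bases around that codon, Igkv3-4 shared 92.0% of bases with Igkv3-10 and 91.4% with Igkv3-2, and 67.8% with Igkv1-122. Reads from such close relatives can be split or dropped in counting. Of the 160 genes, 100 had no window of 90 bases in common with the transcripts of another gene, and 6 had at most 50% of such windows to themselves: Igkv2-137, Igkv6-29, Igkv6-20, Igkv8-16, Igkv3-11 and Igkv3-6. Counts of these 6 are uncertain. For Igkv3-4 99.3% of windows were unique, for Igkv3-10 73.7% and for Igkv1-117 78.1%. In barcodes with 20 or more Igkv UMIs led by 1 gene, 8.88%, 12.3% and 10.9% of the remaining Igkv UMIs in reactions 1, 2 and 3 came from the leading gene's own subgroup. Those subgroups' shares in barcodes with 1 to 4 Igkv UMIs, weighted the same way, were 7.88%, 12.6% and 9.01%.

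The matrices held 62575, 56511 and 7050 barcodes with 127052825, 105259770 and 18055617 gene UMIs in reactions 1, 2 and 3. Barcodes with 200 to under 2500 genes and under 10% mitochondrial UMIs were kept, which left 62322, 56229 and 6518. Reaction 1 thus kept more barcodes than the 60000 cells loaded, and the 3 reactions together many times the number of lymph node cells the study describes. A barcode here is therefore not shown to be 1 cell, and counts and shares below are of barcodes. Reactions 1 and 2 shared 4797 cell barcodes, reactions 1 and 3 shared 533, and reactions 2 and 3 shared 531. Of the 119 shared by reactions 1 and 2 with a leading Igkv gene of 10 or more UMIs in both, 10.1% had the same leading gene, against 11.2% for any pair of such barcodes across the 2 reactions. Most barcodes held both B and T cell transcripts. Of barcodes with 10 or more UMIs of 12 B and 14 T cell markers, a barcode was called B cell when at most 20% of these UMIs were from T cell markers, T cell at 80% or more, and mixed between. In reaction 1, 3526 barcodes were B cell, 47909 mixed and 781 T cell. Reaction 2 held 1432, 37039 and 2687, and reaction 3 held 126, 4371 and 89. Within 0.05 of a limit lay 5638, 3558 and 323 barcodes, so these classes are ranges and not cell types. None of the markers was at 0.

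Igkv transcripts stood at 4468, 4373 and 4926 CPM, the UMIs scaled to a common library total, in the 3 reactions. The totals were 558914, 449845 and 61796 Igkv UMIs. For each UMI of Igkc there were 8.09, 7.88 and 8.49 Igkv UMIs. The level was thus alike in the 3 reactions, at 4589 ± 295 CPM (SD, n = 3). At least 1 UMI was found for 127, 131 and 108 members, and 107 were seen in all 3 reactions. All 100 functional genes were detected in at least 1 reaction. The 24 genes with no UMI in any reaction were all annotated pseudogenes, among them Igkv1-136, Igkv12-42, Igkv12-67, Igkv13-56-1 and Igkv13-57-2. A count of 0 allows up to 3 UMIs, or 0.00028% of the 1070555 Igkv UMIs. Together the 60 pseudogenes held 0.16% ± 0.059 of Igkv UMIs (SD, n = 3).

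Igkv3-4 was the most used member in each reaction, with 20.0%, 29.8% and 21.0% of Igkv UMIs. The next genes differed between reactions. Igkv3-10 held 6.90% in reaction 1 and 13.8% in reaction 2 but 0.317% in reaction 3. Igkv1-122 held 11.4% in reaction 2, and 0.124% and 0.1003% in reactions 1 and 3. Igkv1-99 held 2.19%, 6.42% and 11.5%. For these 3 genes the mean and SD over reactions were 7.001% ± 6.73 for Igkv3-10, 3.89% ± 6.55 for Igkv1-122 and 6.70% ± 4.65 for Igkv1-99.

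Of the other members of the first 10, Igkv10-96, Igkv1-135 and Igkv14-111 were highest in reaction 1. Igkv10-96 held 7.26%, 2.31% and 2.16% of Igkv UMIs. Igkv1-135 held 6.64%, 1.34% and 2.26%, and Igkv14-111 held 5.49%, 0.809% and 1.498%. Igkv12-44 was low in reaction 2 only, with 3.84%, 0.796% and 3.68%. Igkv1-117 held 4.62%, 2.78% and 3.97%, with the smallest SD of the 10 genes at 0.930, and Igkv1-110 held 2.75%, 2.56% and 5.71%. The 10 most used genes of each reaction took 63.7%, 75.2% and 65.9% of its Igkv UMIs.

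Usage was more even, and more alike between reactions, among barcodes with few Igkv UMIs. In barcodes with 1 to 4 Igkv UMIs the 10 most used genes took 45.5%, 45.7% and 45.9%. Igkv1-117 then ranked first on the mean of the reactions, with 6.88%, 6.57% and 7.46%, ahead of Igkv1-135 with 5.40%, 4.80% and 5.68%. Igkv3-4 fell to 5.30%, 7.501% and 2.69% there. Across the 160 genes, Pearson's r between reactions was 0.974, 0.973 and 0.928 in these barcodes. In barcodes with 20 or more Igkv UMIs it was 0.832, 0.741 and 0.762. These values are descriptions, since genes are not replicates and the points of a reaction share a library.

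In the barcodes with 20 or more Igkv UMIs, Igkv3-4 held 26.6%, 36.7% and 30.4% of Igkv UMIs. Igkv1-122 held 15.5% there in reaction 2 and 0.0408% and 0.0278% in the others. Igkv1-99 rose to 17.2% in reaction 3, where Igkv12-46 held 6.07% against 0.320% and 0.655% in reactions 1 and 2. The plot of usage in both kinds of barcode shows the points of the 3 reactions close together in the first and far apart in the second.

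**Figure D1:**
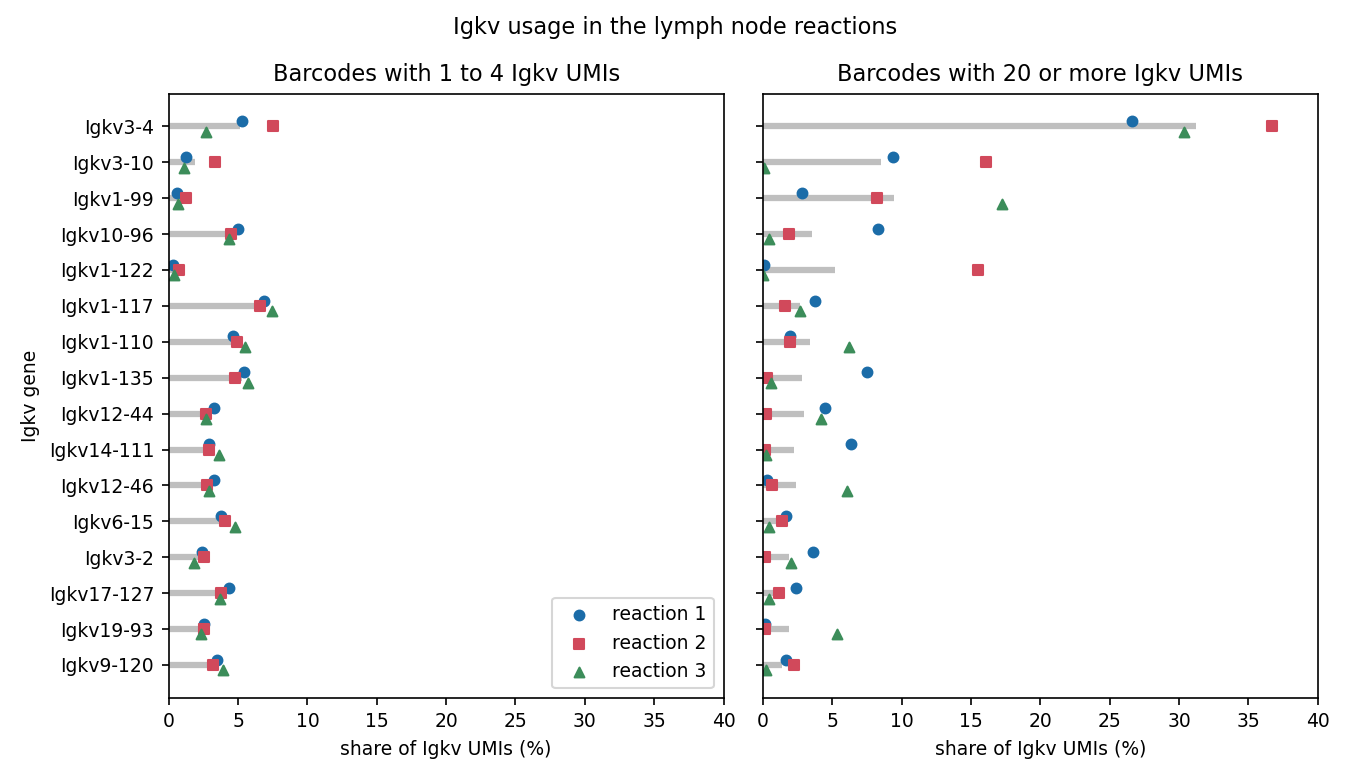
Share of Igkv UMIs (%) for the 16 most used genes in barcodes with 1 to 4 Igkv UMIs (left) and 20 or more (right), with 1 point per reaction and a grey bar to the mean of the 3. Igkv3-4 stands at 26.6% to 36.7% on the right and 2.69% to 7.501% on the left, and Igkv1-122 is high only in reaction 2 on the right.

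By subgroup, the number before the hyphen that marks related V genes, the 13 Igkv3 genes held 34.4% ± 10.2 of all Igkv UMIs but 12.9% ± 3.66 in barcodes with 1 to 4 Igkv UMIs. The 13 Igkv1 genes held 21.98% ± 4.38 and 19.6% ± 1.01. The 33 Igkv4 genes, the largest subgroup, held 3.28% ± 0.786 and 5.49% ± 0.142. Genes on the plus strand held 73.9% ± 5.78 of all Igkv UMIs and 57.9% ± 1.41 of those in the barcodes with few (SD, n = 3 throughout). V genes of either orientation can join Igkj, the plus strand ones by deletion and the minus strand ones by inversion of the DNA between. Among the 100 functional genes, usage in the barcodes with few UMIs showed no order by distance from Igkj1 (Spearman's rho 0.03), a description across genes of 1 locus. The farthest functional gene, Igkv2-137, held 0.590%, 0.0614% and 0.167% of Igkv UMIs, and the nearest, Igkv3-1, held 0.607%, 0.107% and 0.121%.

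The Igkv UMIs were spread very unevenly over barcodes. The median barcode held 3, 2 and 4 Igkv UMIs, while 11.6%, 12.1% and 15.6% of barcodes held 20 or more and carried 64.7%, 69.4% and 63.9% of all Igkv UMIs. Barcodes with 1 to 4 made up 54.0%, 56.0% and 47.4% and carried 14.5%, 15.1% and 12.1%. Counted in bins that widen with the number of UMIs of the leading gene, barcodes were most frequent at 1 UMI, few at 4 UMIs, and more frequent again in the bins between 20 and 39. The wider bins hold more values, and per single UMI value there were fewer barcodes between 20 and 39 than at 4.

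**Figure D2:**
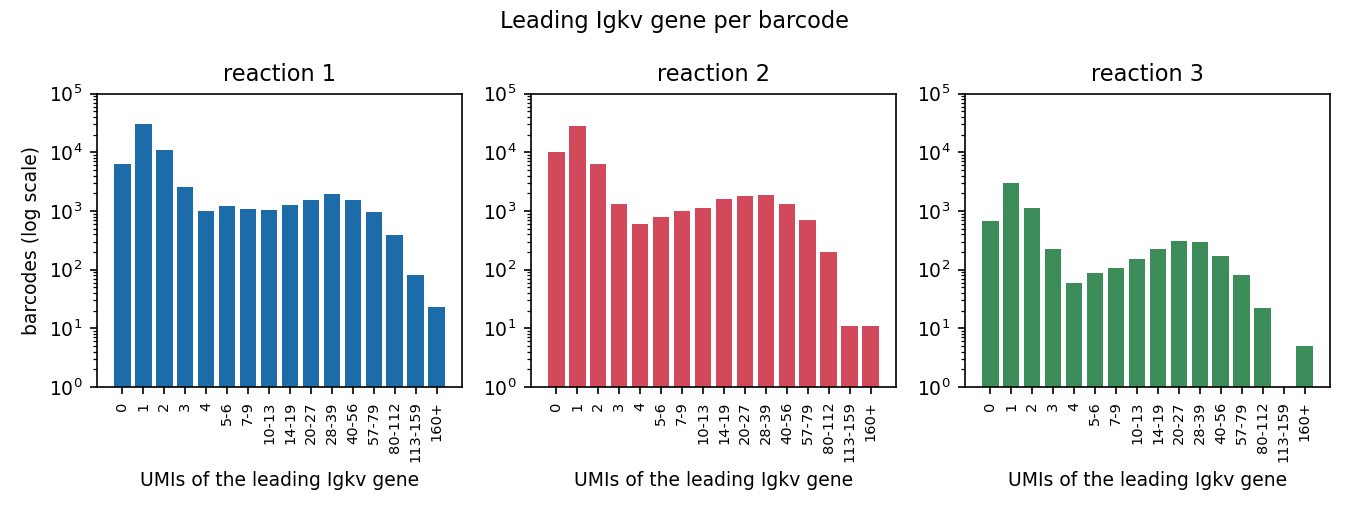
Number of barcodes (log axis) by the UMIs of their leading Igkv gene in bins of unequal width, for the 3 reactions. Each reaction has many barcodes at 1 UMI, a low bar at 4 UMIs and higher bars between 20 and 39 UMIs, where each bar spans more values.

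How often 1 gene dominated a barcode changed with that number. A barcode was called dominated when it held at least 5 Igkv UMIs and at least 80% came from 1 gene. Of barcodes with 5 to 9 Igkv UMIs, 6.47%, 17.2% and 3.84% were dominated. The share reached 78.7%, 74.8% and 86.7% at 20 to 49 UMIs. At 100 or more UMIs it was 51.4% of 440 barcodes in reaction 1 and 26.3% of 190 in reaction 2, while all 13 such barcodes of reaction 3 were dominated. Those 13 had only 3 leading genes, with Igkv1-99 in 53.8%, so they may not be independent. The median number of Igkv UMIs outside the leading gene stayed at 2 to 5 from 10 to 99 UMIs in every reaction. In all, 16228 barcodes were dominated, by 74 different members.

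Plasma cell transcripts moved with the number of Igkv UMIs. The 7 plasma cell markers summed to 195, 173 and 203 CPM in barcodes with 2 to 4 Igkv UMIs and to 2537, 2291 and 2681 CPM in those with 20 to 49. Jchain, which links IgM and IgA chains and marks antibody-secreting cells, went from 49.3, 41.3 and 39.8 CPM to 1894, 1759 and 2205 CPM. It thus made up most of the sum at 20 to 49 UMIs. Mzb1, also of the 7, went from 77.2, 59.2 and 77.1 CPM to 459, 356 and 302 CPM. The remaining markers were not followed singly by number of Igkv UMIs. Slpi, a secreted protease inhibitor outside the marker lists, went from 26.6, 24.6 and 11.0 CPM to 1087, 1936 and 1051 CPM. The T cell share of the B and T marker UMIs went from 42.5%, 52.2% and 48.6% to 41.4%, 50.5% and 46.7%. It was 42.3%, 52.2% and 49.5% at 50 to 99 Igkv UMIs, and 42.5%, 52.9% and 31.2% at 100 or more, the last over 13 barcodes. The values of the Igkv genes and of plasma cell markers in a mixed barcode cannot be assigned to 1 cell.

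**Figure D3:**
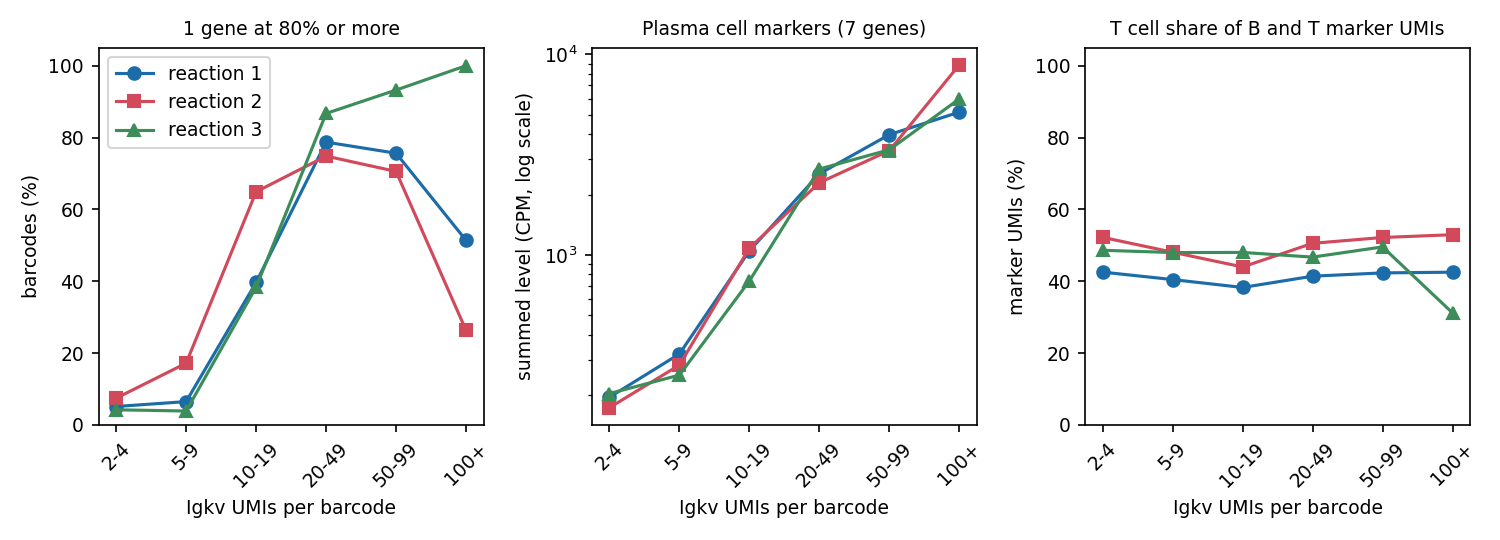
Barcodes dominated by 1 Igkv gene (%), summed level of the 7 plasma cell markers (CPM, log axis) and T cell share of B and T marker UMIs (%) against Igkv UMIs per barcode, with 1 line per reaction. At 2 to 4 Igkv UMIs, under the minimum of 5, the share counts barcodes with 80% from 1 gene. The first 2 are higher at 20 to 49 Igkv UMIs than at 5 to 9 in each reaction, while the T cell share lies between 31.2% and 52.9%.

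B cell barcodes were compared with mixed ones to ask whether purer barcodes show more of 1 V gene. The Igkv level was 4433, 6828 and 6540 CPM in B cell barcodes and 4535, 4507 and 3621 CPM in mixed ones. The 95% Poisson intervals, which cover counting error only, were 4382 to 4484 and 4522 to 4548 in reaction 1. B cell barcodes were higher in reactions 2 and 3 and slightly lower in reaction 1, a mean difference of 0.47 ± 0.46 on the log2 scale (exact two-sided sign-flip test, p = 0.5, n = 3). The B cell markers that define the classes summed to 7669, 9570 and 7522 CPM in B cell barcodes and 4684, 3868 and 4278 CPM in mixed ones. Some rise in a B cell transcript is thus set by the class rule, and its part in the Igkv difference was not tested. Without the single barcode with most Igkv UMIs, which held 2646 in the B cell class of reaction 2, the B cell levels were 4411, 5789 and 5933 CPM. The log2 difference was 0.73 without reaction 1, 0.28 without reaction 3 and 0.21 at a purity limit of 0.3. T cell barcodes held 2042, 1820 and 1722 CPM. With 3 reactions the smallest p this test can give is 0.25.

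The share of barcodes with any Igkv UMI was 93.4%, 89.7% and 91.3% in the B cell class, 94.1%, 89.2% and 94.3% in the mixed class, and 44.6%, 51.2% and 53.9% in the T cell class. T cells do not make kappa chains, but up to 20% of the marker UMIs of a T cell barcode may be from B cell markers. Of the T cell barcodes, 6.02%, 6.96% and 5.62% held 20 or more Igkv UMIs, so the last values are not a pure background. The median depths were 1758, 1519 and 1407 UMIs for B cell, 2031, 1869 and 2051 for mixed, and 2206, 1957 and 2081 for T cell barcodes. Thinned to 1000 UMIs per barcode, the shares were 85.2%, 84.1% and 87.0% for B cell, 81.1%, 75.3% and 81.1% for mixed, and 36.4%, 41.0% and 44.3% for T cell barcodes. The thinning left out 100, 210 and 18 shallower B cell barcodes and 337, 403 and 158 mixed ones. B cell barcodes were above mixed ones by 6.30 ± 2.39 percentage points after thinning, in 3 of 3 reactions (exact sign-flip test, p = 0.25). The class rule bears on this share as it does on the level.

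Among barcodes with 5 or more Igkv UMIs, dominance by 1 gene was more frequent in B cell than in mixed barcodes in each reaction, an order that did not hold in each at 10 or more. It was found in 35.9% of 1472, 57.3% of 693 and 48.0% of 50 B cell barcodes with 5 or more Igkv UMIs. In mixed barcodes it was found in 31.8% of 18792, 48.2% of 11163 and 26.5% of 1912. The 95% exact binomial intervals, which cover counting error only and take barcodes as independent, which those sharing a V gene pair may not be, were 33.5% to 38.4% against 31.1% to 32.4% in reaction 1, 53.5% to 61.0% against 47.3% to 49.1% in reaction 2, and 33.7% to 62.6% against 24.5% to 28.5% in reaction 3. Over the reactions the difference was 11.6 ± 8.95 percentage points (exact sign-flip test, p = 0.25, n = 3). It was 6.63 points without reaction 3, and 2.90 ± 20.4 points when at least 10 Igkv UMIs were required (exact sign-flip test, p = 1, n = 3). At that minimum B cell barcodes were higher in reaction 3 alone, at 82.1% of 28 against 57.4%, and lower in reaction 1, at 63.1% against 63.6%, and in reaction 2, at 54.5% against 70.1%. With a purity limit of 0.1 in place of 0.2 it was 27.5 points, and with 0.3 it was 4.06, positive in 2 of 3 reactions. Barcodes with 20 or more Igkv UMIs made up 10.7%, 11.0% and 19.05% of B cell and 12.7%, 13.8% and 10.5% of mixed barcodes, and their part in the difference was not tested. In T cell barcodes the share was higher than in both other classes in each reaction, at 54.4% of 103, 60.4% of 328 and 50.0% of 16.

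Pair identity gave the same order of B cell and mixed barcodes. It is the chance that 2 Igkv UMIs drawn from 1 barcode belong to the same gene, averaged over barcodes with at least 2. It was 0.286, 0.579 and 0.326 in B cell barcodes and 0.235, 0.291 and 0.204 in mixed ones, with a mean difference of 0.154 ± 0.121 (exact sign-flip test, p = 0.25, n = 3). Without reaction 2 the difference was 0.0872, and it was 0.255 and 0.0645 at purity limits of 0.1 and 0.3. UMIs drawn from the whole class instead of 1 barcode matched at 0.0582, 0.101 and 0.123 in B cell barcodes and 0.0701, 0.128 and 0.0594 in mixed ones. T cell barcodes stood at 0.30, 0.311 and 0.270. Heavy chain V genes (Ighv) had a pair identity of 0.485, 0.643 and 0.631 in B cell and 0.489, 0.584 and 0.439 in mixed barcodes, which differed by 0.0825 ± 0.0999 (p = 0.5, exact sign-flip test).

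**Figure D4:**
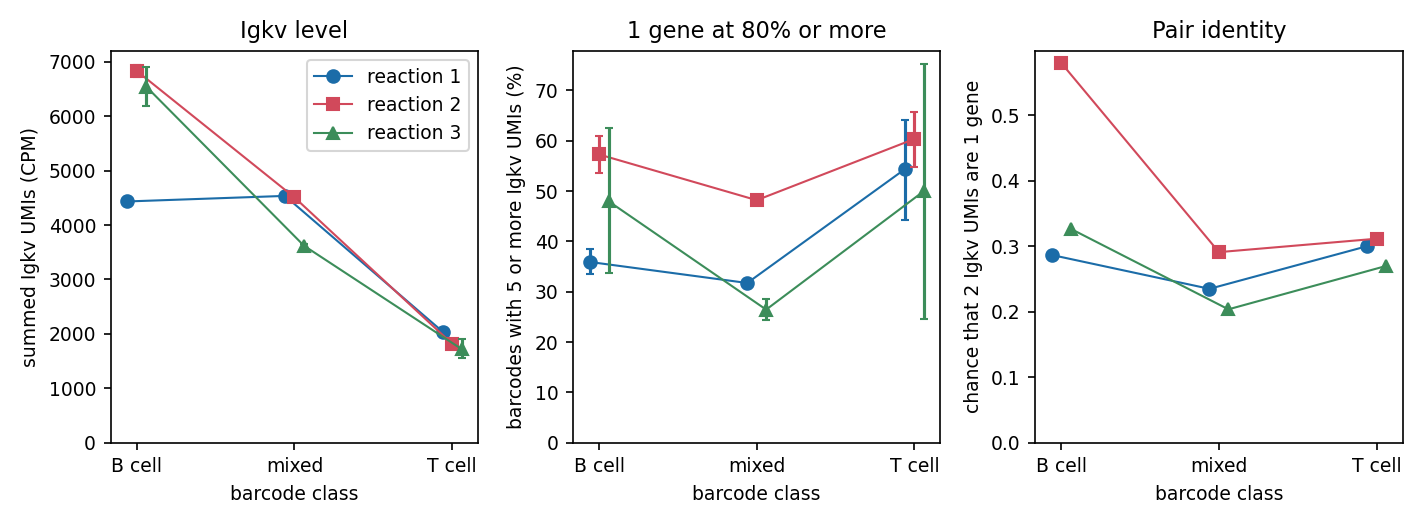
Summed Igkv level (CPM), share of barcodes dominated by 1 Igkv gene (%) and pair identity in B cell, mixed and T cell barcodes, with 1 line per reaction and bars for 95% Poisson and exact binomial intervals. In each reaction the B cell point lies above the mixed point for dominance and pair identity, and for the level in reactions 2 and 3.

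The genes that led dominated B cell barcodes were again headed by Igkv3-4, with 95, 47 and 8 barcodes. Igkv1-135 led 59, 13 and 0, Igkv10-96 led 48, 14 and 0, and Igkv1-117 led 25, 34 and 0. Igkv12-46 led 8, 11 and 6, which by the mean of the reactions' shares put it second at 9.76%, a value carried by the 6 of 24 barcodes in reaction 3. Igkv1-99, next at 6.67%, led 3, 11 and 4. Without reaction 3 these shares were 2.14% for Igkv12-46 and 1.67% for Igkv1-99. The rest of the first 10 were Igkv9-120 with 11, 17 and 1, Igkv1-110 with 20, 26 and 0, Igkv3-10 with 21, 23 and 0, and Igkv14-111 with 37, 10 and 0.

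For some members the share of UMIs and the share of dominated barcodes differed. Igkv14-126 held 3.20% of Igkv UMIs in reaction 3 but led 5 dominated barcodes there. These 5 had 320 to 417 Igkv UMIs each, all with Ighv11-2, with 6 to 14 Ighm UMIs and no switched heavy chain UMI. Igkv14-126 with Ighv11-2 is a pairing known from B-1 cells that bind phosphatidylcholine. The barcode with 417 Igkv UMIs was a mixed one. In reaction 3 Igkv14-126 stood at 193 CPM in the mixed sum and 24.9 CPM in the B cell sum. The 5 barcodes were alike, with 44 to 63 Ighv11-2 and 10 to 18 Jchain UMIs each. They are not shown to be separate cells or B-1 cells. The ratio of UMI share to barcode share was 4.59 for Igkv14-126, 4.67 for Igkv15-103, 2.80 for Igkv6-32, 2.17 for Igkv19-93 and 2.09 for Igkv8-27. It was lowest for Igkv2-137 at 0.396, Igkv2-109 at 0.456, Igkv4-86 at 0.484, Igkv6-20 at 0.599 and Igkv8-30 at 0.616. Igkv2-109 led 49, 8 and 95 dominated barcodes, and Igkv4-86 led 1, 69 and 0. Of these 10 ratios, 6 moved by over 1.5 times, or could not be had, when 1 reaction was left out. Without reaction 3 Igkv14-126 stood at 1.57, Igkv19-93 at 5.44 and Igkv2-109 at 1.03. Igkv8-27 stood at 11.4 without reaction 1, Igkv4-86 stood at 9.57 without reaction 2, and Igkv2-137 led dominated barcodes in reaction 1 alone.

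Summed per reaction and class, 82 of the 160 members passed the filter on low counts, and edgeR's quasi-likelihood test called 0 of them between B cell and mixed sums at an adjusted p of 0.05. Of all 12611 genes tested, 0.103% were called, which were 13 genes that all belonged to the markers that define the classes. At an unadjusted p under 0.05 in edgeR stood 14 of the 82 (17.1%), against 8.67% of all genes, and DESeq2 also called 0. The B cell and mixed sums of a reaction come from the same library. With reaction as a block, edgeR called 17 members, against 2.3% of all genes tested, of which 15 were higher (1.6% of all genes) and 2 lower (0.698%) in B cell sums. The median log2 fold change of the 82 was 0.48, and that of all genes -0.01. The class rule may set part of this direction too, which was not tested.

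With the block, Igkv3-2 had the largest fitted fold change of the 15 higher members, at 157, 81.4 and 757 CPM against 143, 31.8 and 45.1 CPM in mixed sums (log2 fold change 1.63 ± 0.38 SE, adjusted p = 0.0216 by edgeR with the block). Of its 152 UMIs in the B cell sum of reaction 3, 144 were in 1 barcode, without which the level was 41.1 CPM, below the mixed sum. Igkv1-122, also called as higher, had 2628 of 3088 UMIs of the B cell sum of reaction 2 in 1 barcode, and its level fell from 1233 to 184 CPM without it, against 483 CPM in the mixed sum. Igkv14-100 stood at 27.4, 31.9 and 19.9 CPM against 12.2, 8.15 and 14.4 (log2 1.46 ± 0.20 SE, edgeR adjusted p = 0.000155 with the block). In reaction 3 this rested on 4 UMIs, and without the barcode holding 2 of them the level was 10.1 CPM, below the mixed sum. Without the barcode richest in the gene, 6 of the 15 higher members fell below the mixed sum in at least 1 reaction where they had been above it. Igkv12-41, Igkv3-12, Igkv17-121 and Igkv6-32, also called as higher, were below the mixed sum in reaction 3 with every barcode kept. They stood at 34.9, 9.96, 74.7 and 24.9 CPM against 46.5, 19.5, 84.0 and 25.4. Igkv12-46 stood at 69.4, 102 and 737 CPM against 49.6, 54.5 and 192 (1.05 ± 0.16 SE, edgeR adjusted p = 0.000824 with the block). The 2 lower members were Igkv3-10, at 159, 330 and 19.9 CPM against 313, 634 and 14.4, and Igkv11-125, at 2.88, 2.00 and 0 CPM against 18.7, 1.26 and 1.18. Their log2 fold changes with the block were -0.89 ± 0.13 SE and -2.20 ± 0.45 SE. Igkv3-10 was lower in reactions 1 and 2 only. For Igkv11-125 only reaction 1 had the counts to show a difference, as its B cell sums held 19, 5 and 0 UMIs, and in reaction 2 the level was 1.20 CPM, below the mixed sum, without the barcode holding 2 of the 5. Over all passing barcodes of reaction 1, 1 group of 56 that also held Igkv3-4 carried 1819 of the 2073 Igkv11-125 UMIs. Ighv1-69 led those of the 56 with at least 5 Ighv UMIs. Mixed sums without such groups were not computed. The genes named with the block were chosen after the blocked values were seen. Without the block their lowest adjusted p by edgeR was 0.144, for Igkv14-100.

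Other genes of the B cell receptor pathway were compared in the same fits. Of 27 listed genes, 5 were class markers and 21 of the others were tested, with 0 called by edgeR in either direction and a median log2 fold change of 0.62. With reaction as a block, edgeR called 13 of the 21 as higher and 1, Ighg2b, as lower in B cell sums, against 1.6% and 0.698% of all genes tested. The classes were cut on B against T cell markers, so a higher level of other B cell genes is in part set by the class rule. Its part in these calls was not tested. Igkc, the kappa constant gene, stood at 636, 980 and 1265 CPM in B cell sums and 548, 551 and 493 CPM in mixed ones. Jchain, at 367, 396 and 493 CPM against 429, 401 and 252, and Ighg1, the IgG1 constant gene, at 397, 366 and 877 CPM against 474, 388 and 142, were higher in B cell sums in reaction 3 alone. The kinase Syk, which carries the receptor signal, stood at 279, 346 and 279 CPM against 208, 165 and 178.

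Barcodes led by the same Igkv gene often shared a heavy chain gene. A barcode counted as led by a pair when its leading Igkv gene had 10 or more UMIs and 80% of Igkv UMIs, and 1 Ighv gene had 80% of at least 5 Ighv UMIs. This held for 5001, 5122 and 912 of the 8745, 8633 and 1257 barcodes with a leading Igkv gene of 10 or more UMIs. The rest were left out, so partner shares below cover only barcodes led by a pair. These fell into 80, 43 and 29 pairs. Pairs found in 10 or more barcodes numbered 64, 25 and 19 and took 99.1%, 99.3% and 96.7% of the barcodes led by a pair. The leading genes came from 32, 25 and 22 Igkv genes and 44, 30 and 22 Ighv genes. The junctions with Igkj and the D and J segments were not read, so a shared pair does not show a shared clone.

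In reaction 1 all 529 barcodes led by Igkv3-10 had Ighv1-18. In reaction 2, 1280 of 1281 led by the same gene had Ighv3-6. Igkv1-122 came with Ighv1-18 in all 679 such barcodes of reaction 2, and Igkv1-99 with Ighv1-18 in all 91 of reaction 1 and all 93 of reaction 3, but with Ighv1-26 in 81.9% of 337 in reaction 2. Igkv12-46 had Ighv3-6 in all 100 of reaction 3, and Igkv1-117 had Ighv8-8 in 99.5% of 196 in reaction 1. Other members had several partners. Igkv14-111 and Igkv10-96 had 7 each in reaction 1, where the first partner held 32.4% of 466 and 36.5% of 677 barcodes. Igkv3-4 had the most, with 14 Ighv partners over 913 barcodes in reaction 1, 8 over 2053 in reaction 2 and 5 over 284 in reaction 3, and its first partner held 19.6%, 34.2% and 59.2%.

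The pairs were mostly of 1 reaction. Of 100 pairs with 10 or more barcodes in any reaction, 92 reached 10 in 1 reaction, 8 in 2 and 0 in all 3. Reactions 1 and 2 shared 6 of these pairs, 9.38% of those of reaction 1 and 24% of those of reaction 2, among them Igkv3-4 with Ighv5-6 (179 and 410 barcodes), with Ighv8-8 (109 and 628) and with Ighv9-3 (46 and 703). The limit of 10 is a larger share of the 912 barcodes led by a pair in reaction 3 than of the 5001 and 5122 in reactions 1 and 2. Igkv1-99/Ighv1-18, at 91, 6 and 93 barcodes, was present in all 3 reactions. A randomly drawn pair of barcodes from the same reaction had the same Igkv and Ighv genes with a chance of 3.20%, 12.6% and 8.23%. For barcodes from different reactions this was 0.719% for reactions 1 and 2, 0.266% for 1 and 3 and 0.0119% for 2 and 3. Whether the reactions held different mice was not tested. The chance of sharing the Igkv gene alone was 9.00%, 24.7% and 14.4% within reactions and 10.4%, 6.84% and 13.3% between them.

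**Figure D5:**
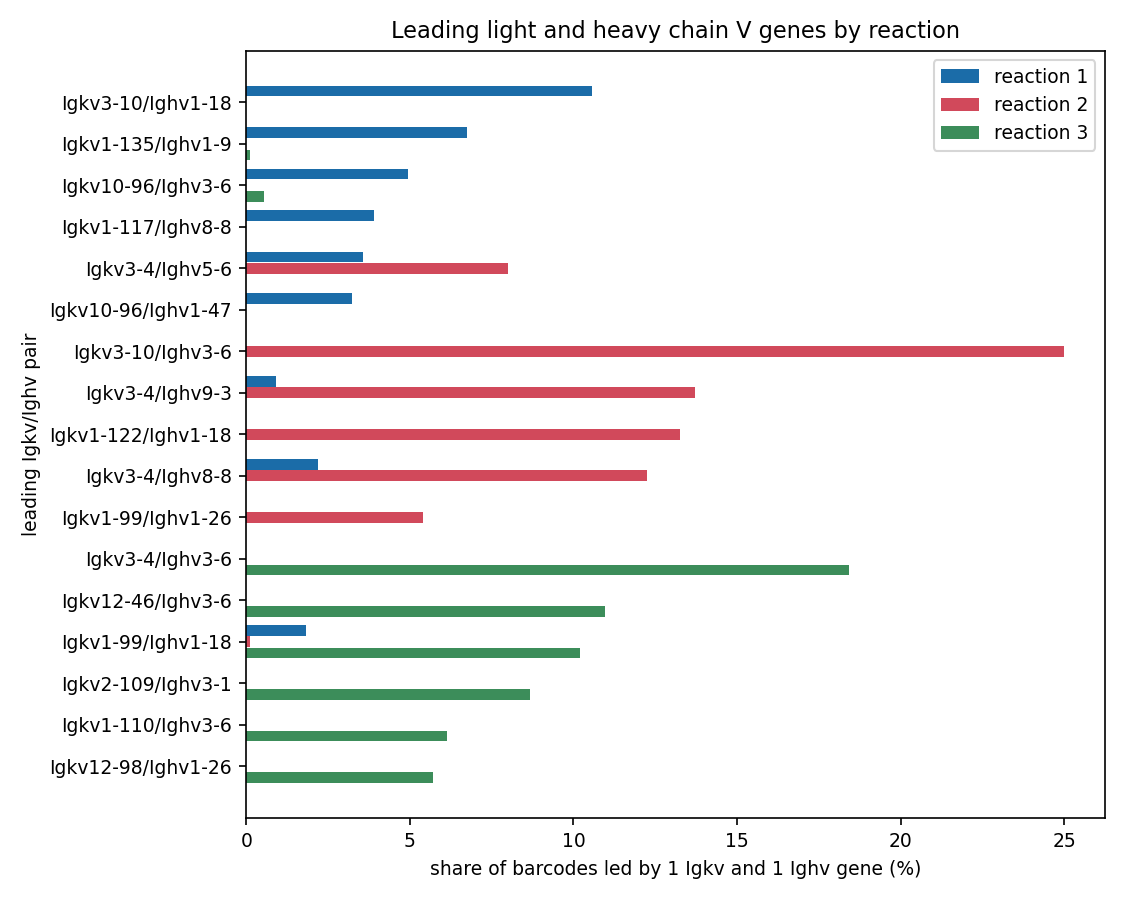
Share of the barcodes led by 1 Igkv and 1 Ighv gene (%) for the 6 most frequent pairs of each reaction, with 1 bar per reaction. Igkv3-10/Ighv3-6 takes 24.99% in reaction 2 and 0 barcodes in the others, while Igkv3-4/Ighv5-6 takes 3.58% in reaction 1 and 8.00% in reaction 2.

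In several groups the quartiles of the Igkv UMIs lay close together, with few barcodes far above them. The 679 barcodes of Igkv1-122/Ighv1-18 in reaction 2 had a median of 36 UMIs of Igkv1-122, with quartiles at 28.5 and 45, and 2 barcodes at 1808 and 2628. The 195 of Igkv1-117/Ighv8-8 in reaction 1 had a median of 34 and quartiles at 26.5 and 41.5, with 1 barcode at 2282 and the next at 72. The 168 of Igkv3-4/Ighv3-6 in reaction 3 ran from 15 to 88 with a median of 38. Barcodes with 1000 or more Igkv UMIs, before any filter, numbered 10, 11 and 1, and the pair of 7, 11 and 1 of them was also the pair of a group of 10 or more barcodes in that reaction. The heavy chain constant gene did not always match. The barcode of reaction 3, Igkv6-25/Ighv6-6, held 144 Ighg3 and 18 Ighm UMIs, against 0 and 103 in its group. The Igkv1-117/Ighv8-8 barcode of reaction 1 held 245 Ighg1 UMIs, and its group was led by Ighg1. The cell barcode sequences of the largest group in each reaction differed from each other at 11.8 of 16 positions on average, as did those of all barcodes led by a pair.

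Groups differed in their leading heavy chain constant gene. Of the 108 groups of 10 or more barcodes, counted per reaction, Ighg1 led in 76 with 79.9% of the barcodes, Ighg2c in 12, Ighg2b in 8, Ighm, the IgM constant gene, in 7, and Ighg3 in 5. Ighg2b made up 85.3% of the heavy chain constant UMIs for Igkv3-4/Ighv9-3 in reaction 2. Ighg3 made up 71.5% for Igkv12-46/Ighv3-6 and 88.4% for Igkv12-98/Ighv1-26, and Ighm 99.01% for Igkv1-110/Ighv3-6, all in reaction 3. The same pair could differ between reactions, as Igkv3-4/Ighv9-3 had 90.7% Ighg1 in reaction 1, and Igkv3-4/Ighv1-22 had 92.7% Ighg1 in reaction 1 and 89.2% Ighg2c in reaction 2. Some groups were mixed, as Igkv3-4/Ighv8-8 in reaction 2 held 1368 Ighg1 and 1363 Ighg2c UMIs. Groups led by Ighg1 held 83.7% and 81.0% of these barcodes in reactions 1 and 2 and 52.7% in reaction 3. Jchain was above its level in barcodes with 1 to 4 Igkv UMIs in all 64, 25 and 19 groups, with medians of 2248, 2144 and 2448 CPM against 45.01, 37.3 and 38.6 CPM. Slpi was above in 61 of 64, 22 of 25 and 12 of 19 groups and varied more, from 6.11 to 20571 CPM in reaction 1. The T cell share of marker UMIs was 42.7%, 53.4% and 47.1% in barcodes led by a pair and 42.9%, 52.8% and 48.4% in barcodes with 1 to 4 Igkv UMIs.

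Some barcodes held a pair of abundant Igkv genes. Of barcodes with 20 or more Igkv UMIs, 13.0%, 17.2% and 6.69% had a second gene with at least 20% of Igkv UMIs and 80% or more in the leading pair of genes. In these, 1 Ighv gene dominated in 25.8% of 869, 49.2% of 1093 and 21.4% of 56 barcodes with 5 or more Ighv UMIs, against 92.6%, 94.6% and 95.8% where 1 Igkv gene dominated. Of the 28 combinations of Igkv genes found in 20 or more barcodes of a reaction, 7 had 1 dominating Ighv gene in 80% or more of the barcodes with at least 5 Ighv UMIs. The largest 2 of these were both in reaction 2. Igkv8-18 with Igkv4-70 was found in 138 barcodes, and Ighv6-3 led and dominated 100% of those with at least 5 Ighv UMIs. All 87 barcodes with 10 or more Igkv4-70 UMIs had 5 or more of Igkv8-18, and 95.7% of 161 the reverse. Igkv3-4 with Igkv4-68 was found in 316 barcodes, and of those with at least 5 Ighv UMIs Ighv1-77 led 99.4% and 1 Ighv gene dominated 90.7%. All 333 barcodes with 10 or more Igkv4-68 UMIs had 5 or more of Igkv3-4, whereas 18.0% of the 3422 with 10 or more of Igkv3-4 had 5 or more of Igkv4-68. The germline ends of these genes are shown above, and Igkv8-18 and Igkv4-70 shared 59.8% of the compared bases.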

How the data were processed

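The deposited matrices hold raw UMI counts per gene and barcode, which per the file headers the authors made with Cell Ranger 7.1.0 (lymph node) and 8.0.1 (MC38 tumor), while the submitters' processing notes name Cell Ranger 3.1.0 and GRCm38. Barcodes were filtered as in the study's methods (200 to under 2500 genes, under 10% mitochondrial UMIs). No doublet caller was run, since most barcodes were mixed. UMIs were summed per reaction and class and tested with edgeR 4.0.16 (TMM, filterByExpr, quasi-likelihood, Benjamini-Hochberg over all genes), with DESeq2 1.42.0 as an alternative, in R 4.3.3, after tests on simulated data. Standard errors were taken as the fold change over the root of the F statistic. B cell and mixed sums of a reaction are paired by the shared library, with correlations of their deviations of 0.259, 0.0700 and 0.116. Other measures used Python 3.11.15 and exact sign-flip tests over reactions. Members, marker and pathway lists were chosen with earlier results of these data known. Named genes were the 10 with the highest mean UMI share, the 10 that most often led dominated B cell barcodes, the 5 highest and 5 lowest ratios of these shares among genes leading at least 20 barcodes, called genes, the nearest and farthest from Igkj1, and up to 5 without UMIs. Groups by Igkv and Ighv pair, by Igkv UMIs per barcode and with a pair of Igkv genes were defined after seeing the data, as were the values without the barcode with most UMIs. Windows were compared with GENCODE M21 transcripts by exact match on both strands. Promoter, recombination signal and protein sequences were not used here.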

Additional observations from a re-analysis of the deposited data

Results flagged for a closer look

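Igkv UMIs were also present in data outside the comparisons. In the 2 MC38 tumor reactions the Igkv level was 12.2 CPM (595 UMIs) and 25.4 CPM (853 UMIs), and Igkv1-110 held 78.8% of them in the first and Igkv4-57-1 held 69.5% in the second. Of the passing tumor barcodes, 3.496% and 1.21% held an Igkv UMI, and 4 and 7 held 5 or more. In the lymph node barcodes with 2500 or more genes, which the filter leaves out, the level was 11573 CPM in 249 barcodes of reaction 1, 7646 CPM in 280 of reaction 2 and 3028 CPM in 532 of reaction 3. A few barcodes carried much of this in reactions 1 and 2. Single barcodes held 4498, 3972 and 2628 of the 22623 Igkv UMIs in reaction 1. In reaction 2 single barcodes held 3848, 2523, 2127 and 2031 of 18338, and in reaction 3 the richest held 1235 of 16683. The level without them was not computed.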

How the results depend on the processing

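The mean differences between B cell and mixed barcodes kept their sign in every alternative run, but not in every reaction. At 10 or more Igkv UMIs dominance was higher in B cell barcodes in 1 of 3 reactions, at a purity limit of 0.3 in 2 of 3, and the level was higher in 1 of 2 without reaction 2 or without reaction 3. The dominance difference lay between 2.90 and 27.5 percentage points in 11, the pair identity difference between 0.0645 and 0.255 in 8, and the level difference between 0.21 and 0.73 on the log2 scale in 7. Of B cell barcodes 63.2% were dominated at a purity limit of 0.1. At 60% in place of 80% for dominance, 64.0% of B cell and 48.1% of mixed barcodes were dominated, and at 90%, 32.4% and 23.7%. With at least 3 Igkv UMIs it was 36.4% and 21.7%, and with at least 10, 66.6% and 63.7%. With at least 5 Igkv UMIs pair identity in mixed barcodes was 0.412. With 5 marker UMIs the level in B cell barcodes was 7348 CPM. The mean share of Igkv3-4 was 5.16% in barcodes with 1 to 4 and 31.2% in those with 20 or more Igkv UMIs, 2 alternatives added after seeing the data. Members called by edgeR numbered 17 of 82 tested with the replicate block, 14 of 77 at a purity limit of 0.1 and 2 of 124 without the filter on low counts. They numbered 12 of 80 without reaction 1, 0 of 82 without reaction 2 and 0 of 101 without reaction 3. Over all genes, 290 of 12611 tested were called with the block and 51 of 12611 by DESeq2. At purity limits of 0.1 and 0.3, 687 of 11842 and 7 of 13941 were called, and 26 of 22833 without the filter. Without reactions 1, 2 and 3, 154 of 12206, 11 of 12654 and 0 of 16112 were called. The block pairs the sums of 1 library. With it the log2 fold change turned its sign in 9 of the 82 members, among them Igkv19-93 (-0.43 to 0.49), Igkv2-109 (-0.32 to 0.24), Igkv12-44 (-0.22 to 0.18), Igkv8-30 (0.34 to -0.05) and Igkv2-137 (0.12 to -0.14), and in Ighg2c (0.08 to -0.27). The cause of these changes was not tested. Leaving out 1 reaction gave dominance differences of 6.63 to 15.3, pair identity differences of 0.0872 to 0.206 and level differences of 0.28 to 0.73. Reaction 3 has 50 B cell barcodes with 5 or more Igkv UMIs, which limits its values.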
